A study of Mus musculus with 27 samples.

Results

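The genes considered here are the protein-coding neighbours of Per1 on mouse chromosome 11, with a gene start between 64095217 and 74095217 (GRCm38), which is within 5 Mb of the start of Per1 at 69095217. Per1 itself and genes whose names begin with Olfr, Rpl, Nduf, Atp5, Cox or Kcn were left out, and 193 members remained among the 54532 genes of the table. The position of a gene chose it, and no measured value did. Of the members, 47 start before Per1 on the chromosome and 146 after it.

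Mouse embryonic fibroblasts (MEFs) were sampled on days 0, 2 and 4 of their conversion to induced neurons (iNs), with 3 replicates for each of 3 genotypes, which gave 27 libraries in 9 groups. WT cells, Per1-/- cells (B6.129-Per1tm1Drw/J) and Per2-/- cells (B6.129-Per2tm1Drw/J) were all transduced with doxycycline-inducible reprogramming viruses, and day 0 was sampled before doxycycline was added. The cells came from embryos without the head and the heart, the supernatant of 4 embryos was cultured in 1 dish, and the 3 replicates of a group are labelled as biological, with no word on whether they were separate dishes or embryos, so p-values measure only the spread between these samples. Per1 transcript was 4.11 ± 0.87 FPKM (SD, n = 3) in Per1-/- cells and 5.78 ± 0.48 FPKM in WT cells on day 0 (log2 difference against both others -0.47, limma adjusted p = 0.405). The libraries labelled Per2-/- held 1.93 ± 0.07 FPKM of Per2 on day 0, against 0.89 ± 0.07 FPKM in WT. Total Per2 transcript was thus higher, not lower, under that label. By western blotting, the paper found PER1 and PER2 protein lost in the respective knockout MEFs, and total transcript does not measure protein.

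Both knockout alleles were made by gene targeting and then crossed onto another strain background. A targeted allele that is moved between strains by crossing brings along chromosomal DNA of the donor strain on both sides of the target, and the stretch that is kept becomes shorter with more crosses. Genes in such a stretch are called passenger genes, and they can differ in sequence and in expression from the recipient strain. Every Per1-/- library carries both the mutated Per1 gene and whatever donor DNA is linked to it, so the 2 cannot be told apart in these comparisons. The window holds genes of very different roles, among them the tumour suppressor gene Trp53, the synaptic vesicle gene Vamp2, a cluster of skeletal muscle myosin heavy chain genes, genes of macrophage surface proteins such as Cd68, the inflammasome sensors Nlrp1a and Nlrp1b, and Xaf1. Xaf1 encodes a pro-apoptotic factor that antagonises the apoptosis inhibitor XIAP, and it is known as an interferon-induced gene.

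Expression was measured as FPKM, the sequenced fragments of a gene scaled to its length and to the size of the library, with 15815013 to 24264097 fragments per library. Genes averaging 0.5 FPKM or more, 14932 in number, were tested on log2(FPKM + 0.1) with limma, and a call needed an adjusted p (Benjamini-Hochberg) no higher than 0.05 together with a log2 fold change of 0.58 or more in either direction. A fold change on this scale understates the change of low genes. Of the members, 109 passed the filter, 22 before and 87 after Per1. Their mean levels ran from 0.528 FPKM to 232 FPKM, the latter for the translation factor gene Eif5a. Of the other 84 members, 3 were at 0 in all libraries and 3 reached at least 1 FPKM in any library. Markers of more than 1 cell type were measured. The fibroblast marker list had 16 of 16 genes past the filter, with a summed level of 4107 to 7132 FPKM over the libraries. The macrophage list had 39 of 43 past it. On day 2 its mean on the log2 scale was 3.05 to 3.72 in Per1-/- libraries, 2.14 to 2.63 in WT and 1.60 to 2.20 where the label is Per2-/-, on day 4 it was 3.97 to 4.56, 3.11 to 3.55 and 2.72 to 3.15, and on day 0 the 3 ranges overlapped. In bulk samples, more cells of a type and more RNA per cell cannot be told apart.

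Xaf1 was the only tested member called between Per1-/- cells and the other genotypes on single days. Its gene lies at chr11:72301629-72313733 on the plus strand, 3.21 Mb after the start of Per1, and overlaps no other gene of the table. On day 0, the 3 libraries held 2.57, 1.22 and 2.02 FPKM in Per1-/- cells, 0.370, 0.433 and 0.447 FPKM in WT cells, and 0.291 to 0.905 FPKM in the libraries labelled Per2-/-. On day 2, Per1-/- cells held 11.9, 8.32 and 7.56 FPKM, against 1.56 to 2.12 FPKM in WT and 1.37 to 2.29 FPKM in the libraries labelled Per2-/-. On day 4, Per1-/- cells held 21.6, 13.2 and 8.98 FPKM, WT 2.84 to 4.66 FPKM, and the libraries labelled Per2-/- 3.44 to 4.66 FPKM. The lowest Per1-/- library thus stood above the highest of the 6 other libraries on each day.

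Against both other genotypes, Xaf1 was higher in Per1-/- cells by 1.80 ± 0.29 (SE) on the log2 scale on day 0 (limma adjusted p = 0.0246). The day 2 difference was 2.23 ± 0.29 (limma adjusted p = 0.00210), and the day 4 difference 1.87 ± 0.29 (adjusted p = 0.00572). These are differences of 3.49-fold, 4.70-fold and 3.66-fold. The mean over the days, with the 3 replicate numbers of each genotype as the units, was 1.97 ± 0.22 higher with a limma adjusted p of 0.0765, so it was not called. Xaf1 also rose between day 0 and day 4 in every genotype, by 2.74 in WT, 2.82 in Per1-/- and 2.76 in Per2-/- labelled libraries on the log2 scale. The call on day 2 against both others held in each of the 27 fits that left out 1 library (largest adjusted p 0.0367). The call on day 4 was lost without Per1-/- replicate 1 (log2 difference 1.55, limma adjusted p = 0.123), and that on day 0 without WT replicate 1 or 2, Per1-/- replicate 1 or 3, or Per2-/- replicate 3 (1.58 to 1.82 in these 5 fits, adjusted p up to 0.150). The day 0 call was also lost with a pseudocount of 1 (log2 difference 0.97, limma adjusted p = 0.348), with TPM scaling (1.72, adjusted p = 0.0550), with voom weights (2.03, adjusted p = 0.576), in a fit of only the libraries compared (adjusted p = 1) and with the replicate number as a block (adjusted p = 0.212). The comparisons with a single genotype rested on fewer libraries. Against WT, the day 2 call was lost without any 1 of its 6 libraries (log2 difference 2.03 to 2.36, limma adjusted p up to 0.264). The day 0 and day 4 calls against WT were lost without any of the 3 WT libraries, and also without Per1-/- replicate 1 or 3 on day 0 and replicate 1 or 2 on day 4 (1.67 to 2.23 in these 10 fits, adjusted p up to 0.484). The day 0 call against WT was also lost on leaving out libraries of other groups, and it held in only 6 of the 27 fits. Against the libraries labelled Per2-/-, the day 2 call was lost without replicate 1 of these (adjusted p = 0.0600), and the day 4 call without replicate 1 or 3 of these or Per1-/- replicate 1 (adjusted p up to 0.126). With a covariate for the macrophage marker mean, the Xaf1 difference against both others was 1.92, 2.57 and 2.20 on days 0, 2 and 4, called on each, and 2.41 over the mean of the days, not called (limma adjusted p = 0.411). On days 2 and 4 the Per1-/- libraries lay above all others in that marker mean, so the adjusted differences there reach past any level the groups shared.

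The sequences shown here are the 300 bases around the gene start (250 before to 50 after, from RefSeq on GRCm38.p6, 5′ to 3′ on the gene's strand) of Xaf1 and Pitpnm3, because Xaf1 was the called member and Pitpnm3, described further on, was called on each day once genes below the filter were tested as well. They lie at chr11:72301379-72301678 (plus strand) and chr11:72135840-72136139 (minus strand).
Xaf1: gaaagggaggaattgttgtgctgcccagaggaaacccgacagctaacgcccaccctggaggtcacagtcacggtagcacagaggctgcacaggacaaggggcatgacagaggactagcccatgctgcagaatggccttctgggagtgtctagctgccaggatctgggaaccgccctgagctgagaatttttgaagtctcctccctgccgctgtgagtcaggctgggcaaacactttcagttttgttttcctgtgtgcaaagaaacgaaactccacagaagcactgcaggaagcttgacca
Pitpnm3: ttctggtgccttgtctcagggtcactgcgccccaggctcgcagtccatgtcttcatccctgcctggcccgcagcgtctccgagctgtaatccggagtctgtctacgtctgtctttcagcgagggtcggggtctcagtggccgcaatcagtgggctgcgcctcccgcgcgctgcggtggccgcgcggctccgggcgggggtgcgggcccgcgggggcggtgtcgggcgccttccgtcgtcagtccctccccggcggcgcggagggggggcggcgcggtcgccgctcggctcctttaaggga
The letters CACGTG, the E-box bound by circadian clock factors, and GAAANNGAA, the core of the interferon-stimulated response element, were searched on both strands. Neither was in either window as an exact match, so no letters are in capitals. Looser forms of these motifs, and bases outside the windows, were not searched. Of the 143 members with a promoter in the RefSeq table, 15 held CACGTG and 12 held GAAANNGAA. Counted over promoters, CACGTG was in 17 of 174 promoters of the members (9.77%) and in 7.15% of all 32851, and GAAANNGAA was in 12 of 174 (6.90%) and in 8.56% of all.

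Among 54 tested interferon-stimulated genes across the genome, a list that includes Xaf1, the Xaf1 difference between Per1-/- cells and both others was the highest on each of the 3 days. The median of the other 53 was 0.041 on day 0, 0.28 on day 2 and 0.19 on day 4, against 0.0056, -0.014 and -0.0084 over all genes tested. The highest of the others was Trim30a on day 0, at 1.08, and Sp100 on days 2 and 4, at 1.21 and 0.94. Besides Xaf1, Parp14 was called on day 4 (0.78 ± 0.17, limma adjusted p = 0.0483), and no other gene of the list was called on any day. The list as a whole changed with time in all genotypes: 44 of 54 were called higher on day 4 than on day 0 in WT, 47 in Per1-/- cells and 46 in the third genotype. Of 17 tested clock genes, none was called on any day between Per1-/- cells and both others (limma), while 2, 1 and 4 had an unadjusted p under 0.05 on days 0, 2 and 4.

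**Figure D1:**
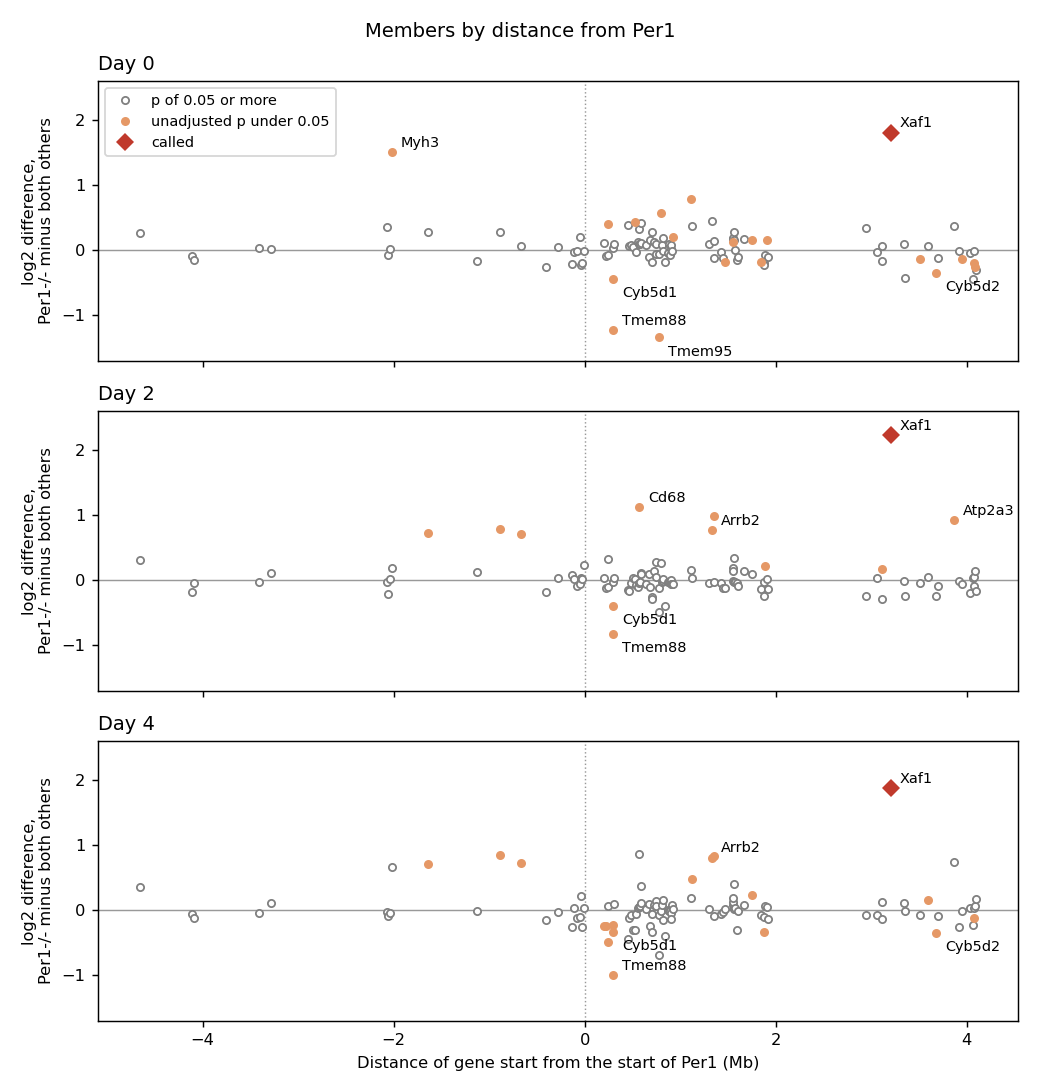
Log2 difference of each of the 109 tested members, Per1-/- minus the mean of both other genotypes (y axis), against the distance of its start from the start of Per1 in Mb (x axis), for days 0, 2 and 4. Xaf1, at 3.21 Mb, is the only called member (diamond) and stands at 1.80, 2.23 and 1.87, and filled circles are members with an unadjusted p under 0.05.

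Against WT alone, 1 of 109 members, Xaf1, was called on each of the 3 days. Over all 14932 genes, 0.0134%, 0.0067% and 0.0268% were called. Against the libraries labelled Per2-/-, 0, 1 and 1 members were called, where 0.0201%, 0.0737% and 0.556% of all genes were. On day 0 that comparison had 11 members with an unadjusted p under 0.05 (5.97% of all genes). Against both others together, 1 member was called on each day, and of all genes 0.0134%, 0.0134% and 0.228%. These comparisons use the same Per1-/- libraries. Over the mean of the days, 0 members were called against both others by limma (0.0067% of all genes) and 21 had an unadjusted p under 0.05 (9.88% of all genes). The comparison of the libraries labelled Per2-/- with WT, which leaves out Per1-/- cells, gave 0 called members over the mean of the days by limma (0.0067% of all genes), and 1 member, Trappc1, with an unadjusted p under 0.05 (3% of all genes). By day, that comparison called 0 members (limma, 0.0067%, 0.0268% and 0.0067% of all genes on days 0, 2 and 4). On day 0 it had 9 of 109 members with an unadjusted p under 0.05 (8.26%, against 3.94% of all genes), 4 of them higher and 5 lower in the libraries labelled Per2-/-, and on days 2 and 4 it had 1 and 0 members (2.87% and 3.42% of all genes). In this comparison without Per1-/- cells, the share of members was thus above that of all genes on day 0 and below it on days 2 and 4.

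The share of genes with an unadjusted p under 0.05 was higher among the members than over all genes on each day. An unadjusted p under 0.05 against both others was found for 20 of 109 members on day 0 (18.3%, against 5.8% of all genes), 12 on day 2 (11%, against 6.4%) and 18 on day 4 (16.5%, against 11.4%). On day 0, 10 of the 20 were higher and 10 lower in Per1-/- cells, and 19 of them lay after Per1 and 1 before it. The median size of the difference on day 0 was 0.14 for the members and 0.098 for all genes, and on days 2 and 4 it was 0.10 and 0.11 for the members and 0.098 and 0.12 for all genes. Most differences were small: 5, 9 and 11 of the 109 members reached 0.58 in size on days 0, 2 and 4. Over the mean of the days, the share with an unadjusted p under 0.05 was 19.3% of the members against 9.88% of all genes. When each library was left out in turn, 18 to 28 members and 8.04% to 13.3% of all genes had such a p. The day 0 share depended on the fit. With only the libraries compared it was 9.17% of the members and 3.02% of all genes, whereas day 2 had 14.7% and 9.52%, and day 4 19.3% and 13.1%. On day 0 it was 11.9% against 4.72% with the replicate number as a block, and 14.7% against 5.73% with TPM scaling.

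Members whose 3 Per1-/- libraries all lay above or all below the 6 other libraries of the day were also counted. They were 7 of 109 on day 0, where 1.47% of all genes did so, 12 on day 2 (4.9% of all genes) and 11 on day 4 (7.59% of all genes). Xaf1 was the only tested member on the same side on all 3 days, and 0.0603% of all genes tested were. The members on day 0 were Slc25a11, Rabep1, Mpdu1, Dlg4 and Xaf1 above, and Cyb5d1 and Tmem88 below. Slc25a11, the mitochondrial oxoglutarate carrier gene, exemplifies how small most of these were: 40.6 to 45.5 FPKM in Per1-/- cells and 36.2 to 40.6 FPKM in the others, a log2 difference of 0.12 ± 0.05.

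The share of genes with an unadjusted p under 0.05 on day 0 was 13.2% of the 53 members up to 1 Mb from Per1, 22.6% of the 31 members from 1 to 2.5 Mb, and 24% of the 25 members from 2.5 to 5 Mb. Further along chromosome 11, it was 14 of 140 protein-coding genes from 5 to 10 Mb, 6.91% of 188 from 10 to 20 Mb and 4.98% of 603 over 20 Mb away, and on other chromosomes it was 5.61% of 11711. Day 0 thus had its highest shares inside the window, and they were not highest nearest to Per1. On day 4 the 3 inner shares were 15.1%, 19.4% and 16%, and the outer ones ran from 12% to 15%. The separation of libraries on day 0 went from 7.55% in the nearest bin through 6.45% and 4% to between 1.38% and 2.14% outside. On day 4 it was 9.43%, 16.1% and 4% in the 3 bins, and 13.6%, 10.1%, 9.29% and 8.04% outside, from the nearest genes to those of other chromosomes. On day 2, 12.2% of the genes from 10 to 20 Mb were separated, within the 9.43% to 12.9% of the 3 bins of the window. In the comparison of the libraries labelled Per2-/- with WT, 1.89%, 0% and 0% of the members of the 3 bins had an unadjusted p under 0.05 over the mean of the days. On day 0 alone these shares were 9.43%, 9.68% and 4%, and further out they ran from 2.14% to 4.79%. These shares are descriptions, since neighbouring genes are not independent. Across the 109 members, Spearman's rho between distance and the size of the mean-of-days difference was 0.16, and rho between mean FPKM and that size was -0.35, that is, members with lower levels tended to have larger differences.

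**Figure D2:**
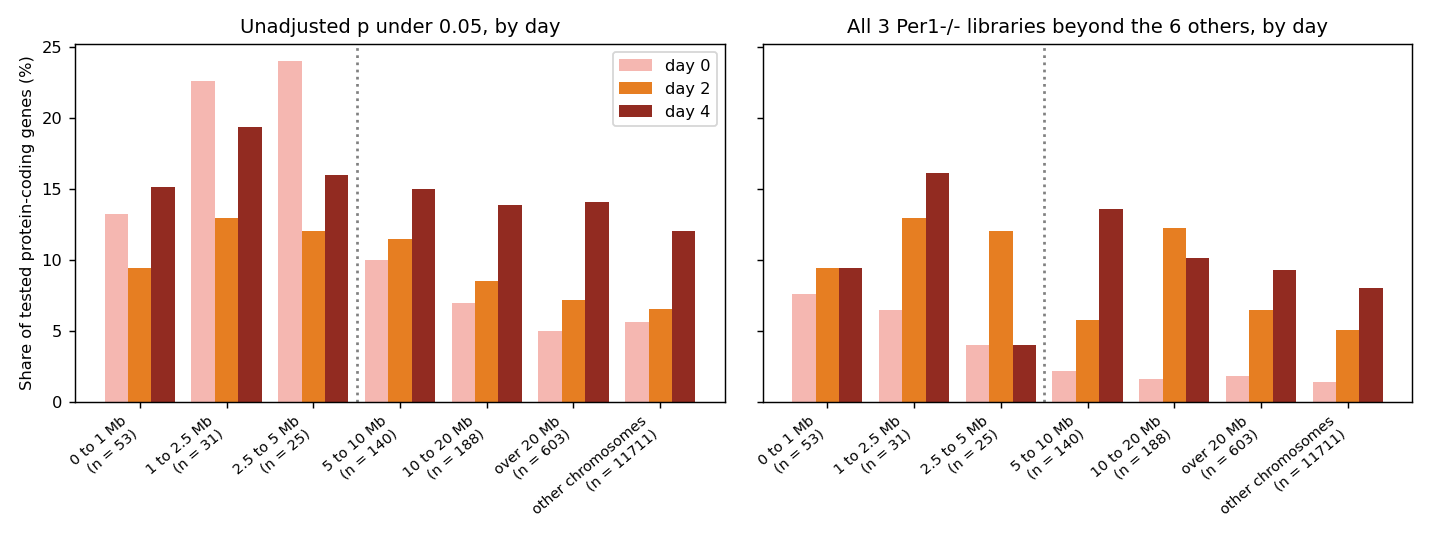
Share in percent of tested protein-coding genes with an unadjusted p under 0.05 for Per1-/- against both others (left) and with all 3 Per1-/- libraries beyond the 6 others (right), by distance from Per1 and day, and the dotted line marks 5 Mb. On day 0 the left shares are 13.2%, 22.6% and 24% inside the window, and outside it the highest is 14 of 140 genes.

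At the edges of the window, the outermost tested members were Hs3st3a1, 4.66 Mb before Per1, and Shpk, 4.10 Mb after it, with mean-of-days differences of 0.31 ± 0.17 and -0.10 ± 0.16 on the log2 scale. The nearest tested genes outside were Hs3st3b1 at 5.21 Mb (0.13 ± 0.21) and Rap1gap2 at 5.29 Mb (-0.27 ± 0.25).

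The immediate neighbours of Per1 showed no called difference by limma on any day. The 3 nearest tested members before Per1 were Vamp2, 6.73 kb from it, which encodes the synaptic vesicle SNARE synaptobrevin, Tmem107, which encodes a protein of the ciliary transition zone, and Borcs6, a gene of the lysosome-positioning complex BORC. The mean-of-days differences against both others were 0.086 ± 0.101 for Vamp2, -0.14 ± 0.09 for Tmem107 and 0.010 ± 0.090 for Borcs6. After Per1 came Cntrob, the gene of the centriole protein centrobin, at -0.034 ± 0.082, Trappc1, a gene of a vesicle tethering complex, at -0.15 ± 0.04 with an unadjusted p of 0.00629, and Rnf227, a RING finger gene, at 0.080 ± 0.110. The Rnf227 difference was 0.41 on day 0 and -0.49 on day 4. On day 0 it was 1.07 to 1.53 FPKM in Per1-/- cells, above the 0.488 to 0.808 FPKM of WT but within the 0.994 to 1.65 FPKM of the libraries labelled Per2-/-, whereas on day 4 it was 2.76 to 3.59 FPKM in Per1-/- cells and 3.86 to 5.67 FPKM in the others. The change of its difference had an unadjusted p under 0.05, as for Borcs6, Cntrob, Efnb3, Sat2 and Ctns, that is 6 of 109 members where 5.24% of all genes did, and 0 members and 0% of all genes were called by limma for such a change. Of the 14 tested neighbours in a list of 22 found in the table, 1, 1 and 4 had an unadjusted p under 0.05 on days 0, 2 and 4, and all of these were lower in Per1-/- cells. Rnf227 and Tmem88 are not in that list. Rnf227 was higher on day 0 (unadjusted p = 0.0317) and lower on day 4 (unadjusted p = 0.0117). The most abundant of the list were Myh10, the gene of nonmuscle myosin IIB, at -0.20 ± 0.12 over the mean of the days, and the chromatin remodeller gene Chd3 at -0.044 ± 0.088.

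About 0.3 Mb after Per1, Tmem88 and Cyb5d1 had lower values in Per1-/- cells. Tmem88 encodes a membrane protein known to inhibit Wnt signalling. On day 0 its libraries held 2.91, 3.81 and 4.92 FPKM in Per1-/- cells, 8.77 to 9.60 FPKM in WT and 6.94 to 11.2 FPKM in the libraries labelled Per2-/-, without overlap. On day 2 Per1-/- cells held 0.705, 2.11 and 2.35 FPKM against 1.98 to 3.77 FPKM, and on day 4 they held 0.399, 1.55 and 0.777 FPKM against 1.16 to 2.64 FPKM, so that the groups overlapped on both days. The log2 differences were -1.23 ± 0.35, -0.82 ± 0.35 and -1.0 ± 0.35, with limma adjusted p-values of 0.425, 0.667 and 0.224. Over the mean of the days the value was -1.02 ± 0.27 (adjusted p = 0.321), and no adjusted p passed the threshold. Tmem88 was called lower on day 4 than on day 0 in every genotype, and the change was -2.41 in WT, -2.12 in Per1-/- cells and -2.29 in Per2-/- labelled libraries.

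Cyb5d1, a gene with a cytochrome b5-like domain, held 11.2, 10.6 and 9.58 FPKM in Per1-/- cells and 12.6 to 16.6 FPKM in the others on day 0. On day 2 it held 7.86, 9.06 and 10.2 FPKM against 10.8 to 13.7 FPKM, again without overlap. On day 4, Per1-/- replicate 2 lay within the range of the others, 9.52 to 11.8 FPKM, and the other 2 libraries held 7.48 and 7.25 FPKM. With libraries rescaled to a common sum (TPM), Cyb5d1 was beyond all others on all 3 days. Its mean-of-days difference of -0.39 ± 0.06 had an unadjusted p of 0.00015 and a limma adjusted p of 0.157. Cyb5d1 at chr11:69391925-69395631 on the minus strand overlaps Naa38 at chr11:69395487-69396680 on the plus strand, and Naa38 overlaps Tmem88 at chr11:69396519-69398234 on the minus strand. The library did not keep the strand, so reads in the shared parts cannot be assigned with certainty. Naa38, a subunit gene of an N-terminal acetyltransferase, did not share the difference of its neighbours on day 0, with 19.9 to 21.4 FPKM in Per1-/- cells and 18.4 to 23.8 FPKM in the others, but on day 4 it held 11.6 to 12.6 FPKM in Per1-/- cells and 12.7 to 15.7 FPKM in the others.

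Of 16 tested genes around Trp53, none was called by limma for Per1-/- against both others on any day, and 2, 1 and 1 had an unadjusted p under 0.05, Tmem88 among them each time. Trp53, which encodes the tumour suppressor p53, held 35.1 to 48.7 FPKM in Per1-/- cells and 34.5 to 40.9 FPKM in the others on day 0, and its mean-of-days difference was -0.0086 ± 0.0669. Eif4a1, the gene of an RNA helicase of translation initiation, and Polr2a, that of the largest subunit of RNA polymerase II, differed by 0.031 ± 0.077 and 0.011 ± 0.043. Of the 19 tested transcription, RNA processing and translation genes, 1, 1 and 0 had an unadjusted p under 0.05, and Eif5a differed by 0.12 ± 0.09.

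Other members with large negative differences were Tmem95, Ybx2 and Cyb5d2. Tmem95, known from the sperm membrane, was low throughout, and on day 0 Per1-/- replicates 1 and 3 held 0.097 and 0.128 FPKM while replicate 2 held 0.977 FPKM, within the range of the others (0.642 to 1.30 FPKM). Its mean-of-days difference was -0.84 ± 0.25 (limma adjusted p = 0.340). Ybx2, a germ cell RNA-binding protein gene, was 0 in 6 libraries of day 0 and differed by -0.32 ± 0.21 (adjusted p = 0.671). Cyb5d2, a heme-binding protein gene 3.68 Mb after Per1, held 1.67 to 2.27 FPKM in Per1-/- cells against 2.10 to 2.85 FPKM on day 0, and 1.15 to 1.60 FPKM against 1.49 to 2.02 FPKM on day 4. The difference of -0.31 ± 0.08 over the mean of the days had an unadjusted p of 0.00276 and an adjusted p of 0.292.

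**Figure D3:**
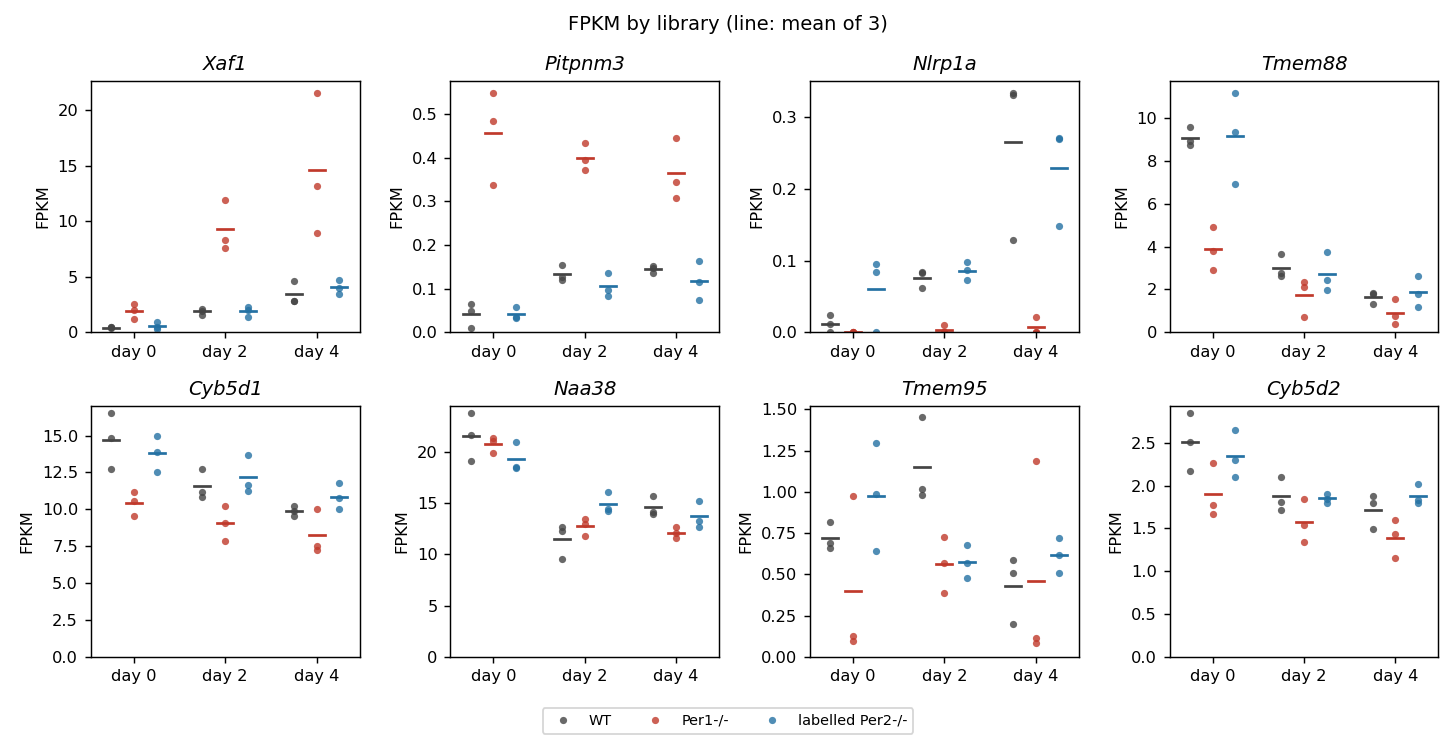
FPKM (y axis) of 8 members in each library on days 0, 2 and 4 (x axis), with a point per library and a line at the mean of 3, for WT, Per1-/- and the libraries labelled Per2-/-. Xaf1 and Pitpnm3 are higher in all Per1-/- libraries on each day, with Pitpnm3 at 0.309 to 0.549 FPKM, and Tmem88 and Cyb5d1 are lower in all Per1-/- libraries on day 0.

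Members below the filter were also read, and Pitpnm3, Acap1, Nlrp1a and Nlrp1b were chosen after their values were seen. Pitpnm3, the gene of a membrane-associated phosphatidylinositol transfer protein 2.95 Mb after Per1, was covered by 92, 83 and 49 fragments in Per1-/- cells on day 0, against 9, 13 and 2 in WT and 10, 6 and 6 where the label is Per2-/-. By day 4 it was covered by 90, 55 and 69 fragments in Per1-/- cells and by 15 to 34 in the others. In FPKM the Per1-/- libraries held 0.338 to 0.549 on day 0 against 0.010 to 0.064, and 0.309 to 0.446 on day 4 against 0.073 to 0.163, without overlap on any of the 3 days. When all 36800 genes above 0 were tested, Pitpnm3 was called against both others on day 0 at 1.97 ± 0.20 (limma adjusted p = 8.5e-05), on day 2 at 1.19 ± 0.20 (adjusted p = 0.0470) and on day 4 at 1.02 ± 0.20 (adjusted p = 0.0387). Acap1, which encodes a GTPase-activating protein of membrane traffic, was the other one above all others on each day, with 0.053 to 0.583 FPKM against 0.010 to 0.043 on day 0 and 0.213 to 0.638 against 0.116 to 0.205 on day 4, and it was not called. On day 0 it was covered by 5, 8 and 42 fragments in Per1-/- cells, 4, 4 and 1 in WT, and 3, 2 and 2 where the label is Per2-/-. Its separation on that day thus rested on few fragments. On day 4 the fragments were 64, 17 and 31 in Per1-/- cells and 12 to 21 in the others.

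Nlrp1a and Nlrp1b, neighbouring genes of inflammasome sensors 2.00 and 2.06 Mb after Per1, had differences of opposite sign on days 2 and 4. On day 2 Nlrp1a was covered by 1, 0 and 0 fragments in Per1-/- cells and by 5 to 9 in the others. Nlrp1b was covered that day by 43, 29 and 48 fragments in Per1-/- cells and by 7 to 12 in the others. Nlrp1a on day 4 was covered by 0, 0 and 2 fragments in Per1-/- cells, 26, 12 and 31 in WT, and 25, 13 and 24 in the libraries labelled Per2-/-. In the test of all genes above 0 its difference on day 4 was -1.66 ± 0.21 (limma adjusted p = 0.000763), a size that depends on the pseudocount. Nlrp1b on day 4 was covered by 80, 37 and 91 fragments in Per1-/- cells, 20, 16 and 37 in WT, and 20, 12 and 37 in the libraries labelled Per2-/-, and it was not called. The 2 genes are close paralogs, so how reads were divided between them is uncertain, and so is each value.

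Of 12 members in the list of macrophage lectins, scavenger receptor and cytokine genes, 4 passed the filter, and 0, 3 and 2 of these had an unadjusted p under 0.05 on days 0, 2 and 4, all higher in Per1-/- cells and none called by limma. The median difference of the 4 was 0.23, 0.88 and 0.82 on the log2 scale. The macrophage marker list was also higher on days 2 and 4, and its part in these differences was not tested. A covariate for its mean cannot decide this, since all Per1-/- libraries lay above all others in that mean on both days. Cd68, a lysosomal glycoprotein gene of macrophages, held 45.8, 37.7 and 67.6 FPKM in Per1-/- cells on day 2, 20.7 to 32.4 FPKM in WT and 12.9 to 24 FPKM in the libraries labelled Per2-/-. On day 4 it held 125, 69.1 and 101 FPKM against 55.6 to 63.5 and 36.6 to 54.7 FPKM. The groups did not overlap on these days, whereas on day 0 Per1-/- replicate 3 held 77.9 FPKM and the other 2 Per1-/- libraries held 13.4 and 21.2 FPKM, within the range of the others.

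Arrb2, the gene of beta-arrestin 2, held 12.8 to 17.0 FPKM in Per1-/- cells and 7.56 to 9.37 FPKM in the others on day 2, and 14.5 to 24.6 FPKM against 10.3 to 14.1 FPKM on day 4. Its difference on day 4 was 0.81 ± 0.26 (limma adjusted p = 0.192). Cxcl16, which encodes a chemokine, Gas7, Ntn1 and Pik3r5, named here after their values were seen, had differences of 0.83, 0.71, 0.86 and 0.72 on day 4, with no call. With voom weights on the recovered fragments, Arrb2 (adjusted p = 0.0314), Ntn1 (adjusted p = 0.0325) and Cxcl16 (adjusted p = 0.0290) were called on day 4 against both others in limma. That fit called 202 of all 14932 genes for this comparison, where the main fit called 34. Atp2a3, which encodes a calcium pump of the endoplasmic reticulum and is found in blood cells, differed by 0.67 ± 0.31 over the mean of the days (adjusted p = 0.534). With the macrophage marker mean as a covariate, the mean-of-days difference was -0.30 for Cd68, -0.29 for Atp2a3, 0.13 for Arrb2 and 0.036 for Cxcl16, and it was 0.47 for Gas7, 0.65 for Ntn1 and -1.30 for Tmem88. In the macrophage list itself, 37 of 39 genes on day 2 and 31 on day 4 had an unadjusted p under 0.05 and were higher in Per1-/- cells, and 2 on day 0.

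**Figure D4:**
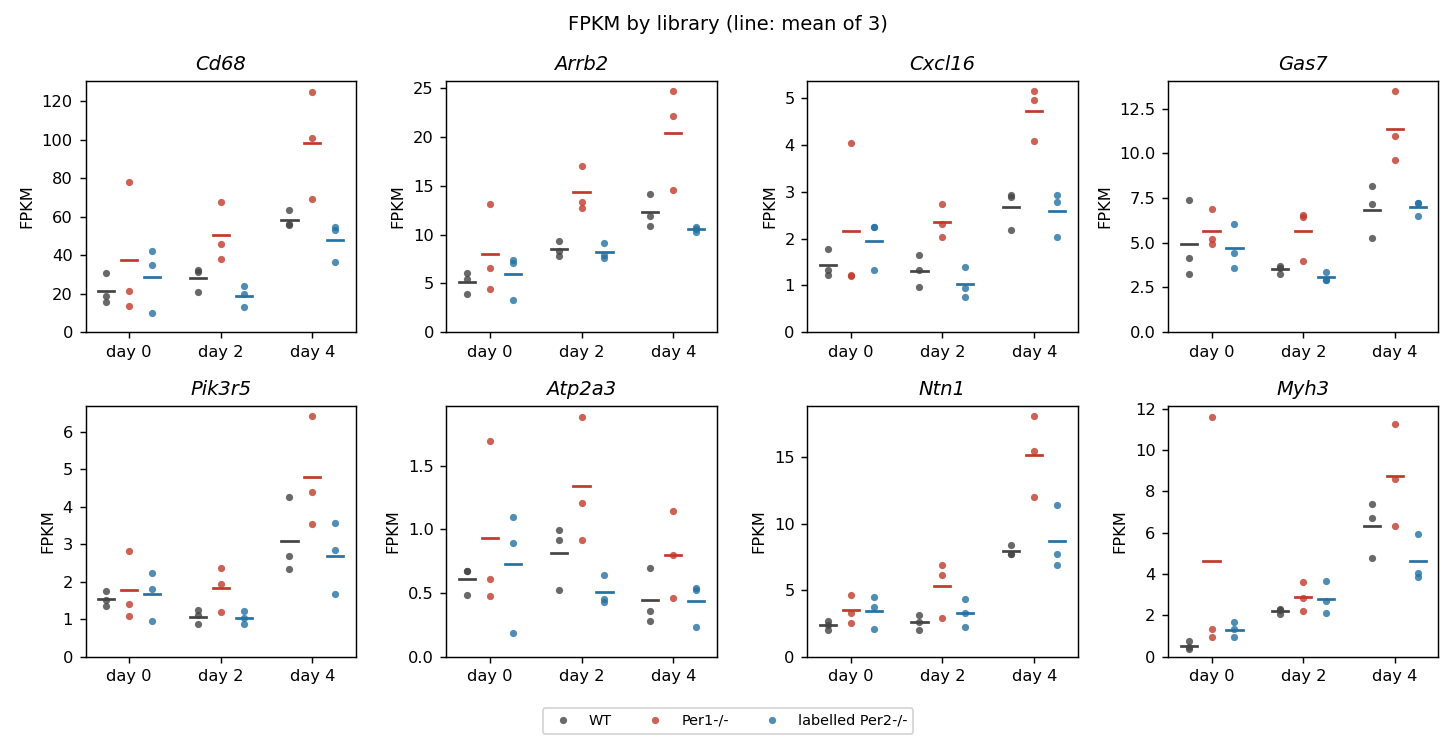
FPKM (y axis) of 8 members in each library on days 0, 2 and 4 (x axis), with a point per library and a line at the mean of 3. On days 2 and 4 Cd68, Arrb2, Cxcl16 and Gas7 are higher in every Per1-/- library than in the 6 others, on day 0 they overlap, and Myh3 has 1 Per1-/- library at 11.6 FPKM on day 0.

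The muscle genes of the window were mostly below the filter: of 12, 4 passed, and the myosin heavy chain genes Myh1, Myh2, Myh4, Myh8 and Myh13 did not. Myh3, the gene of embryonic skeletal myosin 2.02 Mb before Per1, held 11.6 FPKM in Per1-/- replicate 2 on day 0, against 1.36 and 0.950 FPKM in the other Per1-/- libraries and 0.359 to 1.67 FPKM in the 6 others. It rose to 3.85 to 11.3 FPKM on day 4 over all genotypes. The mean-of-days difference was 0.79 ± 0.28 (limma adjusted p = 0.410). In the separate list of muscle markers from across the genome, 5 of 10 tested genes had an unadjusted p under 0.05 on day 0, all higher in Per1-/- cells, with a median difference of 1.09, and 0 on days 2 and 4. The mean of these markers on the log2 scale was 3.48 in Per1-/- replicate 2 on day 0, and the other 2 Per1-/- libraries, at 0.93 and 1.19, lay within the range of the 6 others, -0.039 to 1.37. Without replicate 2 the median difference was 0.021. Its part in the Myh3 values was not tested. Eno3, the muscle enolase gene, differed by 0.34 ± 0.18, and Chrnb1, a subunit gene of the muscle acetylcholine receptor, by -0.065 ± 0.132.

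The neuronal, metabolic and membrane traffic lists gave no member called by limma between Per1-/- cells and both others. Of 15 tested neuronal and axon genes, 2, 2 and 3 had an unadjusted p under 0.05 on days 0, 2 and 4, all higher. Kif1c, the gene of a kinesin, differed by -0.069 ± 0.062 and Ndel1, that of a dynein regulator, by 0.017 ± 0.039. Of 13 mitochondrial and metabolic genes the numbers were 3, 1 and 3, and over the mean of the days Txndc17, a thioredoxin-like gene, was at 0.12 ± 0.05 and Slc25a11 at 0.063 ± 0.039. Of 14 genes of membrane traffic and protein quality they were 3, 0 and 3, with the actin-binding profilin gene Pfn1 at 0.18 ± 0.07 and the autophagy gene Gabarap at -0.039 ± 0.054. Of 8 inflammasome and cell death genes 4 passed the filter, and 1 of them, Xaf1, was called. None of the 6 lipoxygenase genes passed the filter.

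The same members changed far more over the days than between genotypes. From day 0 to day 4, 23 of 109 members were called higher in WT (22.9% of all genes) and 22 lower (20.9% of all genes). In Per1-/- cells 24 were called higher (22.6% of all genes) and 25 lower (20.4% of all genes), and where the label is Per2-/- 24 higher (21.6% of all genes) and 21 lower (18.8% of all genes). The shares of the members were thus near those of all genes. Without the minimum fold change, 76 members were called in WT (63.6% of all genes), 77 in Per1-/- cells (62.7% of all genes) and 75 where the label is Per2-/- (60.4% of all genes). Of the members, 19 were called higher in all 3 genotypes (17.6% of all genes) and 21 lower (15.6% of all genes). Those called higher in all 3 included Vamp2, with a change of 1.58, 1.58 and 1.49, Ntn1, which encodes the axon guidance protein netrin 1, at 1.72, 2.11 and 1.34, and Arrb2 at 1.26, 1.45 and 0.91 in WT, Per1-/- cells and the libraries labelled Per2-/-. Those called lower in all 3 included Eif5a at -1.46, -1.45 and -1.36, Eno3 at -2.20, -2.07 and -2.20, and Trp53 at -0.90, -1.0 and -0.79. By role, 7 of 15 neuronal and axon genes were called higher and 1 lower in each genotype, and among the 19 genes of transcription, RNA processing and translation 1 was called higher and 4 to 5 lower. Of the macrophage-linked list, 3 of 4 were called higher in WT and in Per1-/- cells and 1 in the other genotype.

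**Figure D5:**
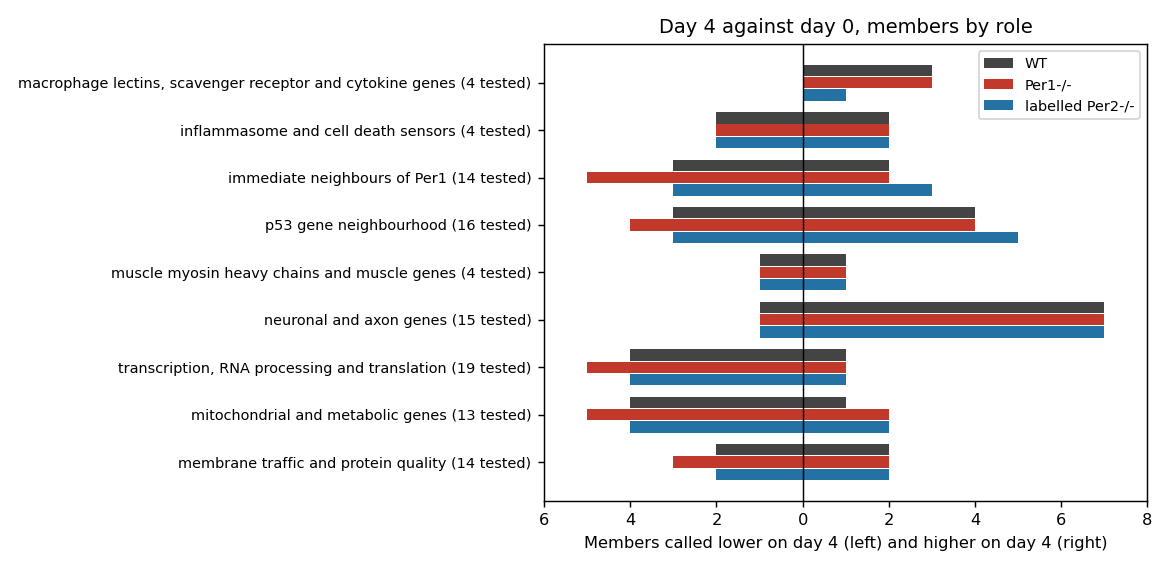
Number of tested members of each role list called lower (left of 0) and higher (right of 0) on day 4 than on day 0, with a bar per genotype. Neuronal and axon genes show 7 higher and 1 lower in each genotype, and genes can be in more than 1 list.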

How the data were processed

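The authors deposited FPKM for 54532 genes. Per the study's methods and the submitters' processing notes, they aligned paired reads of poly-A, nondirectional libraries to GRCm38 (mm10) with HISAT2 2.0.5 and counted them per gene with featureCounts 1.5.0-p3. Every FPKM value times the gene length was a whole multiple of 1 step per library (100% of values, tolerance 0.01), so the fragments were recovered, 15815013 to 24264097 per library. The table held no columns of the authors' comparisons.

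Genotype, day and replicate came from the labels. Genes averaging 0.5 FPKM or more (14932) were fitted as log2(FPKM + 0.1) with limma 3.58.1 (lmFit, contrasts.fit, eBayes with trend) in R 4.3.3, with 9 groups. Means of days used 9 genotype and replicate means. Adjustment was Benjamini-Hochberg over all genes tested per comparison. The procedure was tested on simulated data. Tables and plots were made in Python 3.11.15 (numpy 2.4.6, pandas 2.3.3, matplotlib 3.10.9).

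The members, gene lists and tests were chosen with earlier results of these data known. Named members are Xaf1, those called or beyond both others on all 3 days, the 3 nearest to Per1 on each side, the 5 largest mean-of-days differences in each direction, and the 2 most abundant of each role list. Alternatives were pseudocounts of 1 and 0.01, a filter at a mean of 1 FPKM, all genes above 0, a replicate block, only the libraries compared, TPM scaling, size factors computed again, voom weights, a covariate for the macrophage marker mean, calls without a minimum fold change, the left-out families kept in, and each of 27 libraries left out.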

Additional observations from a re-analysis of the deposited data

How the results depend on the processing

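The number of members called against both others was 1 on each day and 0 over the mean of the days. On day 0 it was 0 with a pseudocount of 1, only the libraries compared, TPM scaling or voom weights, and 2 with all genes above 0. On day 2 it was 2 with all genes above 0. On day 4 it was 3 with all genes above 0, 2 with only the libraries compared and 4 with voom weights. Over the mean of the days it was 1 with a pseudocount of 1, where 4 of all 14932 genes were called. With all genes above 0, 6, 7 and 79 of 36800 genes were called on days 0, 2 and 4, against 2, 2 and 34 of 14932 in the main fit. On day 4, 116 of 14932 genes were called with only the libraries compared and 202 with voom weights. Against WT, 0 were called on day 0 with a pseudocount of 1, only the libraries compared, TPM scaling or voom weights, 0 on day 2 with only the libraries compared, and for day 4 it was 0 with only the libraries compared or TPM scaling and 2 with all genes above 0. Against the third genotype (label Per2-/-), the number was 1 on day 0 with all genes above 0 and 0 on day 2 with only the libraries compared, and for day 4 it was 4 with all genes above 0, 0 with only the libraries compared or TPM scaling, and 2 with voom weights. With each library left out in turn, each of these numbers lay between 0 and 1, except that against both others on day 2 it was 1 in all fits. The members beyond both others on all 3 days were 3 with all genes above 0, 2 with TPM scaling, and 1 to 2 with each library left out. For these settings, and for the comparisons with a single genotype, the counts over all genes are not given here. Without the minimum fold change, 76, 77 and 75 members were called between day 0 and day 4 in WT, Per1-/- cells and the libraries labelled Per2-/-, where 63.6%, 62.7% and 60.4% of all genes were. A pseudocount of 0.01, a filter at 1 FPKM, size factors computed again, the macrophage covariate and the families kept in left the counts of called members within 1.5 times, and the count of members beyond both others, computed only for the filter at 1 FPKM and the families kept in among these, stayed at 1. With all genes above 0, Xaf1 itself was not called against WT on day 0 (limma adjusted p = 0.0502). The causes were not tested.

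With the replicate number as a block, 0 members were called against WT on days 0 and 4, 0 on day 2, 0 against both others on day 0 and 0 on day 4 against the third genotype. The numbers do not pair the genotypes: libraries of 2 genotypes with the same number on a day had deviations correlated at -0.256 to 0.192. Within a genotype, libraries with the same number on 2 days were correlated at -0.017 to 0.294 (median 0.127). With different numbers the correlations were -0.209 to 0.088 (median -0.062). The tests of day 4 against day 0, and of the change of the difference, treated these libraries as independent.

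TPM scaling moved the median difference of all genes to -0.12 on day 4. It also shifted the values of day 0 libraries by a median of -0.29 to -0.12 on the log2 scale, and those of day 4 libraries by -0.16 to 0.18. The sizes of the changes over the days thus depend on this scaling. With it, the mean-of-days difference changed sign for Borcs6 (-0.058), Eif4a1 (-0.039), Polr2a (-0.059), Ndel1 (-0.053) and Slc25a11 (-0.0070). With the macrophage marker mean as a covariate, it changed sign for Tmem107 (0.0014), Cntrob (0.10), Rnf227 (-0.017), Atp2a3 (-0.29), Cd68 (-0.30), Eif4a1 (-0.050), Polr2a (-0.035) and Eno3 (-0.19). With each library left out, the range crossed 0 for Borcs6 (-0.041 to 0.069), Trp53 (-0.063 to 0.045), Polr2a (-0.0095 to 0.040) and Chrnb1 (-0.15 to 0.028). Intervals of low members are limited by depth, since several were covered by fewer than 10 fragments in a library.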

Other observations

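Of the 14932 genes tested, 9 (0.0603%) had all 3 Per1-/- libraries on the same side of the 6 others on all 3 days. Of these 9, 3 are on chromosome 11. Among tested protein-coding genes they were 1 of 109 members, 0% of those from 5 to 10 Mb and from 10 to 20 Mb, and 0.332% of 603 over 20 Mb away. On other chromosomes they were 0.0512% of 11711. Besides Xaf1, those on chromosome 11 are Gm6685, before Per1 at -40.8 Mb, with a mean-of-days difference of 2.16 ± 0.19 (limma adjusted p = 0.0263), and Rnf157, 47.2 Mb after Per1, with -1.62 ± 0.31 (adjusted p = 0.228). Both are outside the window and were chosen after their values were seen. Of the genes left out by name, Rpl26 and Kcnab3 passed the filter, and their mean-of-days differences were -0.019 and -0.40 on the log2 scale, neither called.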
